A study of Mus musculus with 24 samples.

Results

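Small RNAs cut from tRNAs were compared between Tet2 knockout (KO) and wild-type (WT) mouse embryonic stem cells in the first of 2 small RNA experiments of the series. The series holds 24 libraries, of which 12 are small RNA libraries. All rows of the deposited fragment count table were taken for 3 WT and 3 Tet2 KO libraries, that is 1305 rows, each 1 of 435 tRNA genes in 1 of 3 fragment kinds. In these 6 libraries 1120 rows had a count and 598 passed the count filter. Summed over genes with the same anticodon (isoacceptors, 52 in all) and kind, they gave 156 sums, of which 148 had a count and 135 passed the filter.

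The cells were untreated and of strain B6;129, grown with LIF and the inhibitors CHIR99021 (3 µM) and PD0325901 (1 µM), and both groups shared these conditions. RNA of 14 to 38 nt was cut from a gel and made into libraries with a TruSeq small RNA kit. The second experiment, used here for comparison, set 3 libraries of the line E14 against 3 libraries of another set of Tet2 KO cultures, made with a NEBNext kit. Replicates are called biological in the design text. How Tet2 was disrupted, and whether the KO replicates are 1 clone, is stated in no source used here. The table holds tRNA rows only, so neither the loss of Tet2 nor markers of embryonic stem cells could be checked in it.

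TET2 is a dioxygenase that oxidises 5-methylcytosine, in DNA and also in RNA, to 5-hydroxymethylcytosine (hm5C). Mature tRNAs carry 5-methylcytosine placed by enzymes such as TRDMT1 (also called DNMT2), NSUN2 and NSUN6, and cytosine methylation by TRDMT1 and NSUN2 is known to protect tRNAs from cleavage. tRNA-derived fragments are cut from mature tRNAs: tRF5 fragments come from the 5′ end, and tRF3a and tRF3b fragments are by common usage the shorter and the longer of 2 fragments from the 3′ end. No source used here states the lengths that separate the kinds.

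The WT libraries held 104634 to 165669 fragment counts and the KO libraries 96070 to 137833. WT replicate 1 stood apart: over gene-level rows its chi-square per degree of freedom was 27.5 and 29.3 against the other WT libraries, while the other 4 pairs of replicates gave 2.51 to 4.01. Its TMM factor, the scaling by which edgeR makes libraries comparable, was 0.585 in the isoacceptor sums, against 0.956 and 1.02 in WT replicates 2 and 3 and 1.14 to 1.3 in KO. Results that rest on this library are therefore given with and without it.

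The fragments shifted from the 5′ to the 3′ end of tRNAs. The share of tRF5 was 85.4%, 71.1% and 70.1% of counts in the WT libraries and 49.4%, 51.4% and 53.7% in the KO libraries. The share of tRF3a was 7.93%, 15.8% and 17.7% in WT and 31.4%, 28.2% and 25.4% in KO. For tRF3b it was 6.73%, 13.1% and 12.2% in WT and 19.3%, 20.4% and 20.9% in KO. For each kind the groups did not overlap.

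As means, tRF5 made up 75.5% ± 8.53 (SD, n = 3) of WT counts and 51.5% ± 2.17 (SD, n = 3) of KO counts. The difference was -24.0 percentage points for tRF5, 14.5 for tRF3a and 9.52 for tRF3b. The exact two-sided permutation test gave p = 0.1 for each of these 3 differences, adjusted p = 0.1, which is the smallest value 3 against 3 libraries can give. Without WT replicate 1 the differences were -19.1, 11.6 and 7.55 points. Shares add up to the whole, so a rise in the amount of one kind and a fall in another cannot be told apart from them.

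**Figure D1:**
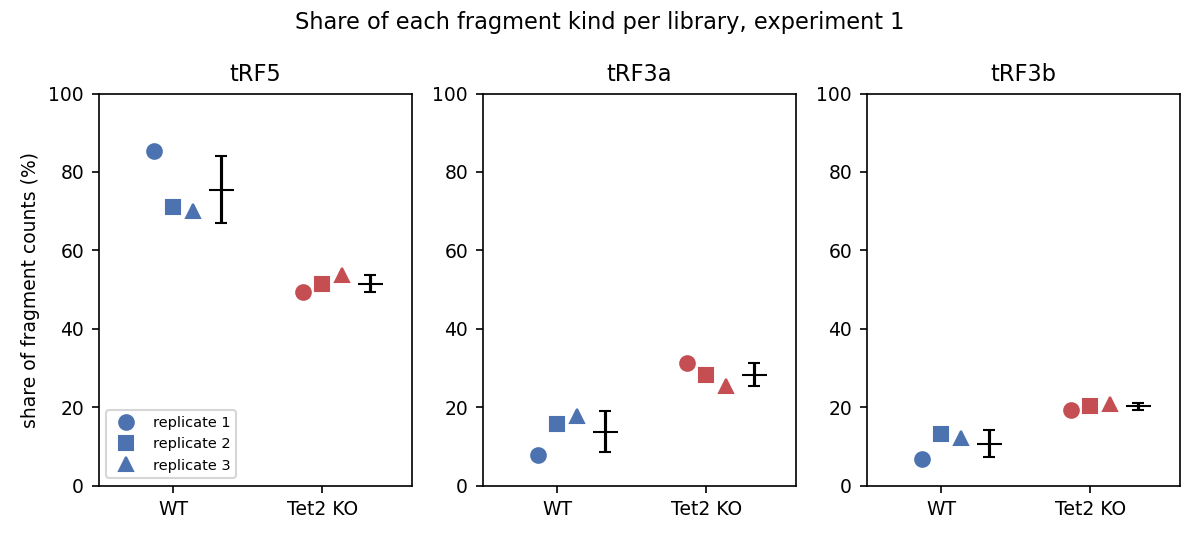
Share of tRF5, tRF3a and tRF3b among the fragment counts of each library (y axis, percent) in WT and Tet2 KO cells of experiment 1; points are libraries, and bars give the mean and SD. The KO libraries sit between 49.4% and 53.7% for tRF5, below all WT libraries, and WT replicate 1 is the highest at 85.4%.

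The same shift was seen within single isoacceptors, where a ratio of 2 kinds in the same library needs no scaling. Of 122 ratios with enough counts, 40 (32.8%) changed at an adjusted p under 0.05 by limma with Benjamini-Hochberg adjustment. tRF3a over tRF5 rose in 14 and fell in 2 of 41 isoacceptors, with a median log2 change of 0.631. tRF3b over tRF5 rose in 14 and fell in 0 of 41, with a median of 0.864, and 38 of the 41 changes were above 0. tRF3a over tRF3b rose in 1 and fell in 9 of 40, with a median of 0.0818.

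LeuAAG, one of 5 leucine isoacceptors, gave the clearest shift from the 5′ end. Its log2 ratio of tRF3a to tRF5 was 0.979, 0.944 and 1.08 in WT and 3.27, 3.0 and 2.87 in KO, a rise of 2.05 (SE 0.211, limma adjusted p = 0.0011). Every KO library stood above every WT library. The ratio of tRF3b to tRF5 of LeuAAG rose by 1.63 (SE 0.23, limma adjusted p = 0.00369). tRF3a over tRF5 rose by 1.85 for ValAAC, by 1.55 for LeuTAG and by 1.39 for LeuCAG, each with a limma adjusted p of 0.00369.

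In a few isoacceptors tRF3a fell against tRF3b, the other fragment of the same end. LysCTT, which decodes AAG, had a log2 ratio of tRF3a to tRF3b of 0.493, -0.617 and 0.519 in WT and of -3.21, -3.66 and -3.66 in KO. That is a fall of 3.64, or 12.5-fold (SE 0.354, limma adjusted p = 0.0011). The same ratio fell by 3.29 for AsnGTT and by 2.32 for HisGTG (both limma adjusted p = 0.00662) and by 2.09 for LysTTT (limma adjusted p = 0.0159), and in each the groups did not overlap. In KO, tRF3a had 17, 11 and 8 counts for LysCTT and 9, 5 and 1 for AsnGTT. Both reached the mean count of 20 that the ratios ask for through WT, so the size of these falls is uncertain.

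Across the 135 isoacceptor sums, edgeR's quasi-likelihood test called 35 (25.9%) higher and 28 (20.7%) lower in KO. For tRF5, 1 sum was higher and 18 were lower among 46, and the median log2 change was -0.55. For tRF3a, 20 sums rose and 9 fell among 44 (median 0.317). For tRF3b, 14 rose and 1 fell among 45 (median 0.357). Calls without WT replicate 1 were 35 higher and 35 lower (25.7% each) of 136.

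The direction of small changes depends on the scaling, since the kinds moved against each other. With library size alone in place of TMM factors the median of all tested sums moved up by 0.506 on the log2 scale, and 47 sums (34.8%) were higher and 13 (9.63%) lower. All 35 higher calls were also made at library size alone, and so were 9 of the 28 lower calls. As a plain share of the library, with no model, 61 sums (45.2%) were higher and 15 (11.1%) lower in KO with no overlap between groups. These were 7 higher and 10 lower of tRF5, 25 higher and 5 lower of tRF3a, and 29 higher and 0 lower of tRF3b.

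**Figure D2:**
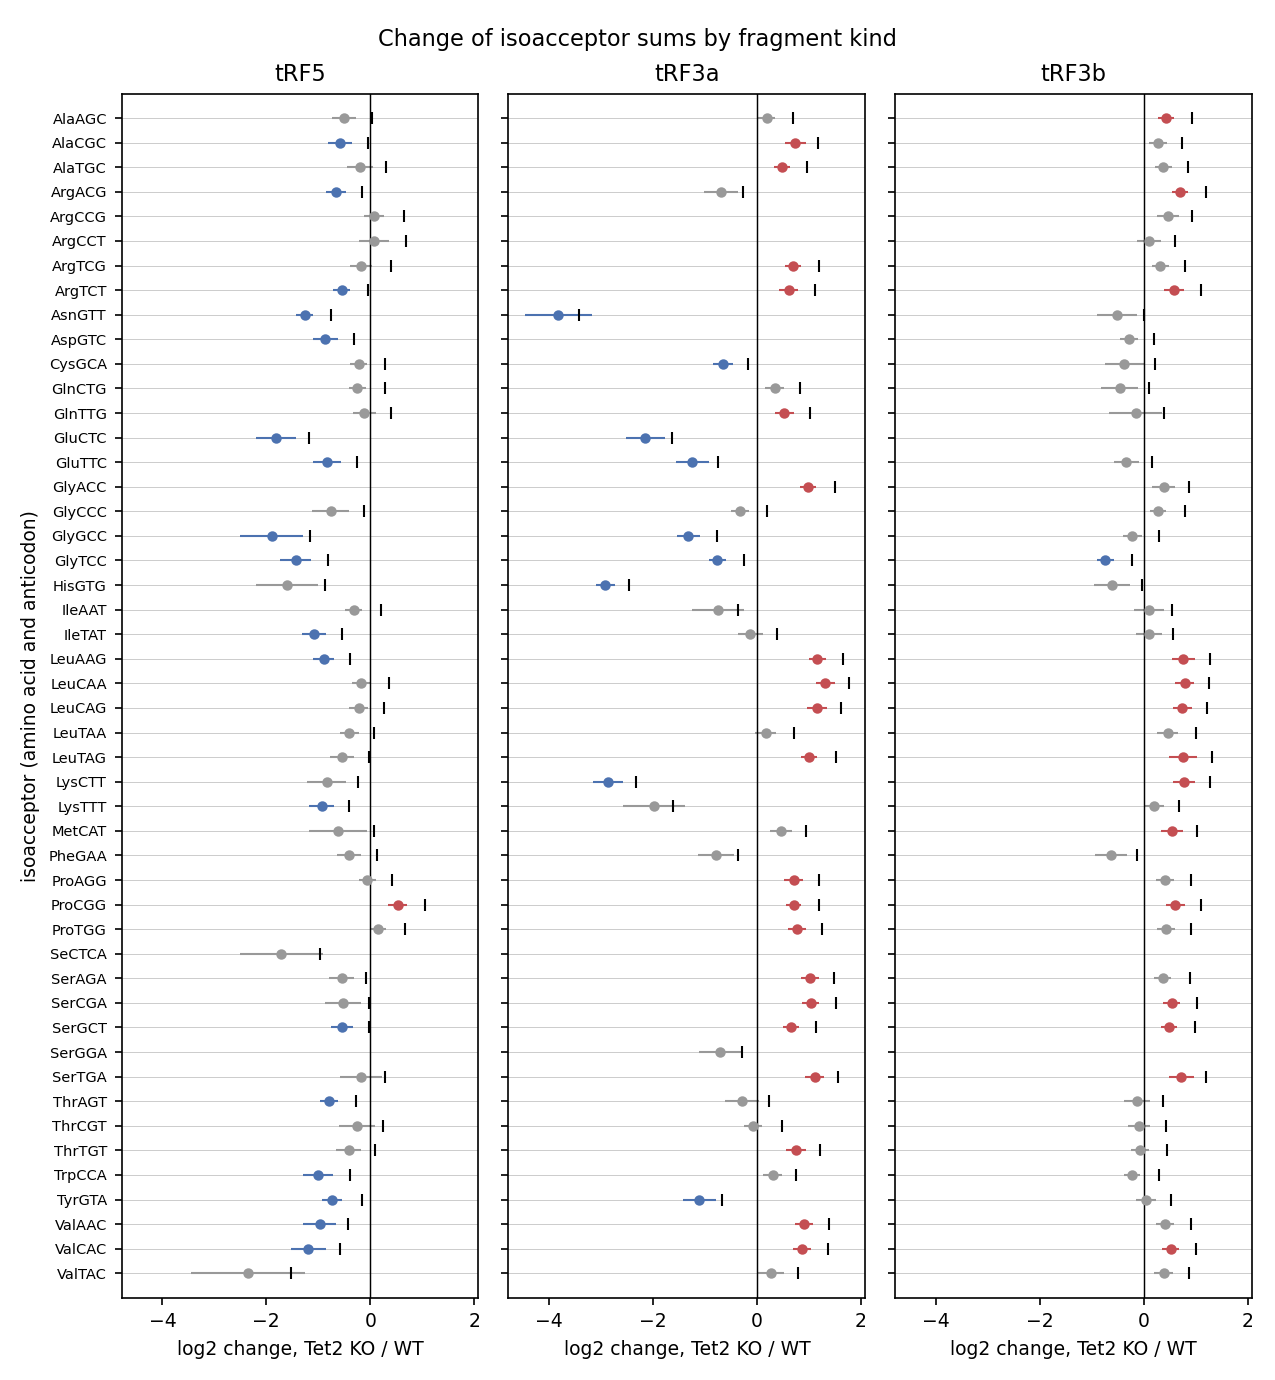
Log2 change of each isoacceptor sum in Tet2 KO against WT (x axis) for the 3 fragment kinds, with isoacceptors on the y axis; points and bars are the TMM-scaled estimate and its SE, red where called higher, blue where called lower and grey where not called, and black ticks are the estimate at library size alone. Red points mark 4 of 5 leucine, 4 of 5 serine and 3 of 3 proline sums in tRF3a, and 4 of 5, 3 of 4 and 1 of 3 in tRF3b. Of all sums, 45.5% in tRF3a and 31.1% in tRF3b are red. Blue tRF3a points reach a log2 change of -3.83 for AsnGTT.

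The deepest falls were in tRF3a of histidine, lysine, asparagine and glutamate tRNAs, against the direction of most tRF3a sums. HisGTG tRF3a, from the tRNA for histidine, stood at 2261, 3218 and 3449 CPM (normalised counts, after TMM scaling) in WT and at 408, 386 and 384 CPM in KO. It fell by 2.92 on the log2 scale, or 7.56-fold (SE 0.191, edgeR adjusted p = 4.63e-09). LysCTT tRF3a was at 743, 477 and 648 CPM in WT and at 104, 73.1 and 73.1 CPM in KO, and fell by 2.87 (SE 0.295, edgeR adjusted p = 1.98e-06). In both, every WT library stood far above every KO library.

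AsnGTT tRF3a rested on few reads, 19, 76 and 66 counts in WT and 9, 5 and 1 counts in KO, and passed the count filter through WT alone. Its size is thus uncertain. It fell by 3.83 (SE 0.647, edgeR adjusted p = 0.00282). GluCTC tRF3a, with 33, 21 and 46 counts in WT and 9, 11 and 10 in KO, fell by 2.15 (SE 0.38, edgeR adjusted p = 0.000322). These 4 sums were also called lower at library size alone, with log2 changes of -2.47 for HisGTG, -2.33 for LysCTT, -3.43 for AsnGTT and -1.63 for GluCTC. LysCTT, with 17, 11 and 8 counts in KO, and GluCTC would not have passed the count filter on KO counts alone. The size of their falls is thus uncertain too.

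Smaller falls of tRF3a were called for GlyGCC, GluTTC, TyrGTA, GlyTCC and CysGCA. GlyGCC tRF3a was at 1548, 999 and 1128 CPM in WT and at 573, 439 and 448 CPM in KO, a fall of 1.32 (edgeR adjusted p = 0.000196). For GluTTC the fall was 1.25 and for TyrGTA 1.11, and in TyrGTA the groups overlapped. None of these 5 was called at library size alone, where their estimates stayed below 0. The CysGCA call (a fall of 0.65) was lost without WT replicate 3 and without KO replicate 2 or 3, at edgeR adjusted p of 0.0683, 0.0625 and 0.057.

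LysTTT tRF3a was at 8353 and 8308 CPM in WT replicates 2 and 3 but at 2570 CPM in WT replicate 1, and at 2278, 1476 and 1078 CPM in KO. The groups did not overlap after TMM scaling, and its estimate of -1.99 just missed the threshold (edgeR adjusted p = 0.0505). As a plain share of the library the groups overlapped, at 0.15%, 0.8% and 0.84% in WT and 0.27%, 0.19% and 0.12% in KO. Without WT replicate 1 LysTTT tRF3a fell by 2.35 (edgeR adjusted p = 6.69e-07), and at library size alone by 1.61 (edgeR adjusted p = 0.0113). tRF3b of LysTTT, from the same end of the same tRNA, was at 8093, 12520 and 8608 CPM in WT and at 11190, 9905 and 12470 CPM in KO, with overlapping groups and an edgeR adjusted p of 0.355.

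**Figure D3:**
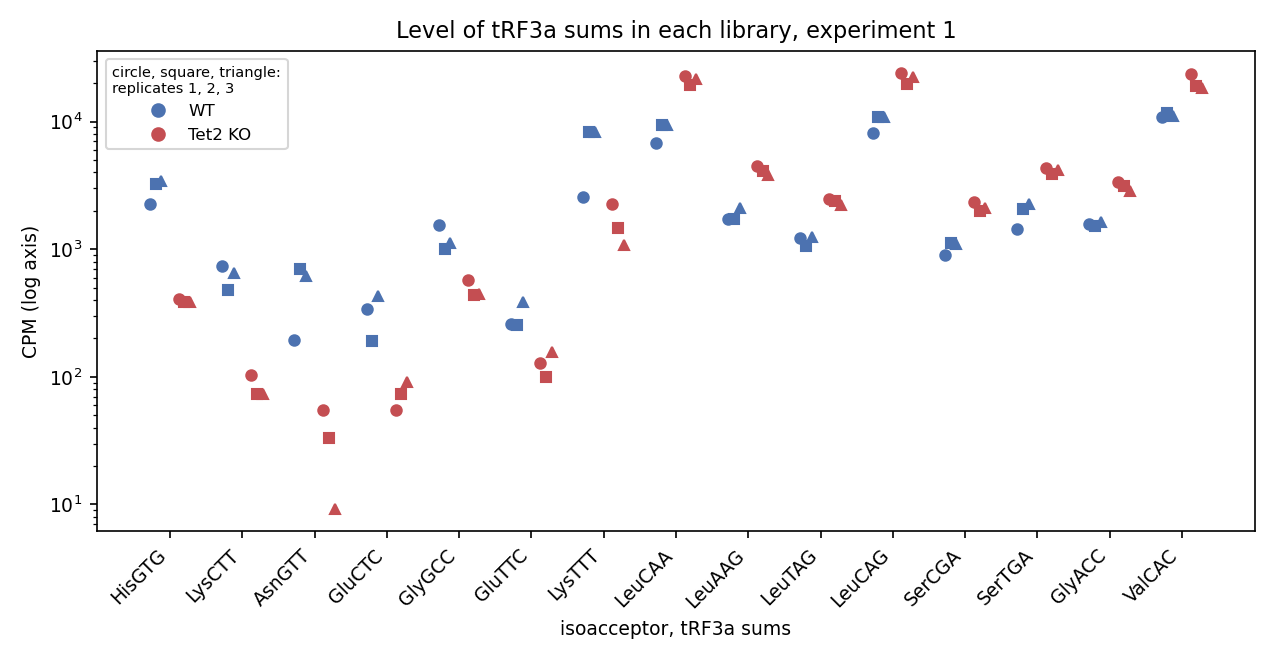
Level of 15 tRF3a sums in each library of experiment 1 (y axis, TMM-scaled CPM, log axis), blue for WT and red for Tet2 KO, with replicates 1 to 3 as circle, square and triangle. HisGTG falls from 2261 to 3449 CPM in WT to 384 to 408 CPM in KO, LeuCAA lies between 6762 and 9426 CPM in WT and between 19240 and 22780 CPM in KO, and WT replicate 1 is low for LysTTT and AsnGTT.

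Leucine and serine tRNAs led the rises at the 3′ end. LeuCAA tRF3a, from the leucine tRNA whose wobble cytosine is methylated by NSUN2, was at 6762, 9425 and 9426 CPM in WT and at 22780, 19240 and 21780 CPM in KO. It rose by 1.32, or 2.49-fold (SE 0.185, edgeR adjusted p = 6.87e-05), with no overlap. LeuCAA tRF3b was at 8981, 12510 and 9153 CPM in WT and at 16150, 16210 and 20380 CPM in KO, a rise of 0.78 (SE 0.185, edgeR adjusted p = 0.00282). LeuCAA tRF5, at 1018 to 1249 CPM in WT and 941 to 1030 CPM in KO, was not called (log2 change -0.18 with TMM scaling and 0.36 at library size alone).

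Of the 15 leucine sums 8 rose and 1 fell, beside 25.9% higher and 20.7% lower over all tested sums, and their median was 0.738 against -0.136. The rises were 4 of 5 in tRF3a, where 45.5% of all sums rose, and 4 of 5 in tRF3b, where 31.1% did. At library size alone 9 rose and 0 fell. tRF3a rose by 1.16 for LeuAAG, 1.15 for LeuCAG and 1.01 for LeuTAG, and for LeuTAA it was not called. The leucine sum that fell was LeuAAG tRF5, by 0.89, at 878 to 996 CPM in WT and 463 to 521 CPM in KO (edgeR adjusted p = 0.00216).

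Of the 13 serine sums tested 7 rose and 1 fell, beside the same 25.9% and 20.7%, and their median was 0.478. The rises were 4 in tRF3a, where 45.5% of all sums rose, and 3 in tRF3b, where 31.1% did. SerTGA tRF3a was at 1445, 2072 and 2265 CPM in WT and at 4331, 3915 and 4210 CPM in KO, a rise of 1.11 (edgeR adjusted p = 0.000196). SerCGA tRF3a rose by 1.03 and SerAGA tRF3a by 1.02.

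Proline and valine tRNAs followed. All 3 proline isoacceptors rose in tRF3a, where 45.5% of all sums rose. ProTGG rose by 0.76, ProAGG by 0.71 and ProCGG by 0.70 (edgeR adjusted p of 0.00222, 0.00492 and 0.00142). ProCGG gave the only tRF5 sum called higher, at 3923, 3301 and 3129 CPM in WT and 4087, 5026 and 5817 CPM in KO, a rise of 0.53 (SE 0.179, edgeR adjusted p = 0.0226). ValAAC tRF3a rose by 0.90 and ValCAC tRF3a by 0.86, while tRF5 of both fell. GlyACC tRF3a rose by 0.98, from 1513 to 1645 CPM in WT to 2840 to 3368 CPM in KO, whereas tRF3a of GlyGCC and GlyTCC fell.

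At the longer 3′ end fragment, ArgACG tRF3b was at 9115, 9086 and 8298 CPM in WT and at 13040, 13530 and 16240 CPM in KO, and rose by 0.69 (SE 0.16, edgeR adjusted p = 0.00252). GlyTCC tRF3b was the only tRF3b sum called lower, at 2063 to 2158 CPM in WT and 1157 to 1419 CPM in KO (a fall of 0.74, edgeR adjusted p = 0.00142), and at library size alone it was not called (edgeR adjusted p = 0.584). LysCTT moved in opposite directions in the 2 kinds of its 3′ end: tRF3b rose by 0.77 (edgeR adjusted p = 0.00882) where tRF3a fell. The rise of LysCTT tRF3b was not called without WT replicate 3 (edgeR adjusted p = 0.0546).

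The 5′ end fragments came mostly from a few tRNAs. GluCTC tRF5, from the main glutamate isoacceptor, made up 15.8%, 12.7% and 12.96% of all fragment counts in the WT libraries and 6.11%, 6.34% and 5.87% in the KO libraries. It fell by 1.81 with TMM scaling (SE 0.388, edgeR adjusted p = 0.00161), by 1.18 at library size alone and by 1.36 without WT replicate 1. The groups did not overlap on any of these scales.

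ValCAC tRF5 took 9.66%, 9.49% and 8.05% of WT counts and 5.71%, 6.44% and 6.01% of KO counts, and fell by 1.19 (SE 0.339, edgeR adjusted p = 0.00944). For ValAAC, WT libraries had 8.24%, 11.4% and 10.2% and KO libraries 7.09%, 7.65% and 7.47%, a fall of 0.97 (SE 0.317, edgeR adjusted p = 0.019). AsnGTT tRF5 was at 2756, 2292 and 2979 CPM in WT and at 1291, 1037 and 1005 CPM in KO, a fall of 1.26 (SE 0.17, edgeR adjusted p = 5e-05). GluCTC, ValCAC, ValAAC, AsnGTT and GlyTCC were the 5 of the 18 lower tRF5 sums that were also called at library size alone.

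GlyGCC tRF5, a well-known source of long 5′ fragments, depended on WT replicate 1. It made up 16.5% of counts there, 7.0% and 6.57% in the other WT libraries and 4.72%, 3.77% and 4.99% in KO. The fall was 1.90 with all libraries (SE 0.606, edgeR adjusted p = 0.035) and 0.88 without WT replicate 1 (edgeR adjusted p = 0.000255). HisGTG tRF5 was also highest in WT replicate 1, with 6.44% in WT replicate 1, 2.95% and 2.86% in the other WT libraries and 2.01%, 2.37% and 2.35% in KO. Its estimate of -1.60 was not called with all libraries and TMM scaling (edgeR adjusted p = 0.0739). At library size alone it was called lower, at -0.86 (edgeR adjusted p = 0.00259), and without WT replicate 1 it fell by 0.66 (edgeR adjusted p = 0.00117).

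LysCTT tRF5 took 12.8%, 11.3% and 11.6% of WT counts and 9.03%, 9.86% and 11.5% of KO counts, with overlapping shares, and was not called (log2 change -0.83, edgeR adjusted p = 0.0739). It was called lower without WT replicate 1 (a fall of 0.46, edgeR adjusted p = 0.0212). Smaller tRF5 falls were called for LysTTT (0.94), AspGTC (0.86), GluTTC (0.83), ThrAGT (0.80) and IleTAT (1.08). For ThrAGT 1 of 4 tested copies fell, chr13.tRNA1008-ThrAGT (by 1.36), which held 55.3% of the counts, and the median of the 4 was 0.036. The calls of GlyGCC, ValCAC, ValAAC and GluTTC tRF5 were lost when any 1 of the KO libraries was left out (edgeR adjusted p of 0.0582 to 0.0982 over these 12 fits). Those of AspGTC, LysTTT and TyrGTA tRF5 were lost without KO replicate 1 or 2, KO replicate 3 and KO replicate 2, respectively.

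By the modification that a tRNA is known to carry, the groups read as follows, beside the 25.9% higher and 20.7% lower over all sums. Of 8 tested sums of the TRDMT1 substrates AspGTC, GlyGCC and ValAAC, 1 was higher (ValAAC tRF3a) and 4 lower, with a median of -0.574. All 3 tRF5 sums were among the lower, where 39.1% of all tRF5 sums were. With tRF5 fitted on its own none of the 3 was called (edgeR adjusted p of 0.699 for AspGTC, 0.2 for GlyGCC and 0.426 for ValAAC). At library size alone 2 of the 8 sums were higher and 1 lower. The LeuCAA group had 2 higher and 0 lower of 3. The NSUN6 substrates CysGCA, ThrAGT and ThrTGT had 1 higher (ThrTGT tRF3a, by 0.76) and 2 lower of 9, and 1 higher and 0 lower at library size alone.

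The isoacceptors with queuosine at the wobble base, AspGTC, AsnGTT, HisGTG and TyrGTA, had 0 higher and 6 lower of 11 tested sums, with a median of -0.864. The lower sums were 3 of 4 in tRF5 and 3 of 3 in tRF3a, where 39.1% and 20.5% of all sums were lower. At library size alone 0 were higher and 4 lower, and 1 of these 4 was HisGTG tRF5, which was not called with TMM scaling. Both counts of lower sums include AsnGTT tRF3a, which passed the count filter through WT alone. With tRF5 fitted on its own none of the 4 tRF5 sums was called. The edgeR adjusted p was 0.699 for AspGTC, 0.0635 for AsnGTT, 0.115 for HisGTG and 0.975 for TyrGTA. With tRF3a fitted on its own the 3 tRF3a sums, AsnGTT among them, were called lower. The isoacceptors whose wobble adenosine is changed to inosine had 7 higher and 4 lower of 24, which became 10 and 1 at library size alone and 7 and 7 without WT replicate 1. Those with a thiolated wobble uridine (LysTTT, GluTTC, GlnTTG) had 1 higher and 3 lower of 9, which became 1 and 1 at library size alone and 1 and 4 without WT replicate 1. GlnTTG tRF3a was the one that rose, by 0.53, and this call was lost without WT replicate 2, KO replicate 1 or KO replicate 3 (edgeR adjusted p of 0.0606, 0.0972 and 0.0508).

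The tRNAs used as primers by retroviruses and LTR retrotransposons (ProTGG, LysTTT, LysCTT and PheGAA) had 2 higher and 2 lower of 12 sums, 3 and 2 at library size alone, and 2 and 5 without WT replicate 1. With all libraries ProTGG tRF3a and LysCTT tRF3b were higher, and LysTTT tRF5 and LysCTT tRF3a lower. LysCTT tRF3a would not have passed the count filter on KO counts alone. PheGAA tRF3a was at 3334, 7078 and 6804 CPM in WT and 4227, 3344 and 2374 CPM in KO, with overlapping groups and a log2 change of -0.79 that was not called (edgeR adjusted p = 0.0946). Without WT replicate 1 it fell by 1.05 (edgeR adjusted p = 0.000393). The 9 isoacceptors often reported as sources of long 5′ fragments had 4 higher and 11 lower of 25 sums, and 6 and 7 at library size alone. Both counts of lower sums include LysCTT tRF3a and GluCTC tRF3a, which would not have passed the count filter on KO counts alone. Among their 9 tRF5 sums 6 were lower, and 4 at library size alone, beside 39.1% and 17.4% of all tRF5 sums. Of the 3 sums of MetCAT 1 was higher (tRF3b, by 0.54), a call lost without WT replicate 1 or 3 or KO replicate 2 or 3 (edgeR adjusted p of 0.0641 to 0.229). The selenocysteine tRNA SeCTCA had 1 tested sum, tRF5, whose estimate of -1.71 was not called (edgeR adjusted p = 0.141). It was -0.56 without WT replicate 1 (edgeR adjusted p = 0.063), and at library size alone it was called lower, at -0.96 (edgeR adjusted p = 0.0249).

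Among single tRNA genes, 127 of 598 tested rows (21.2%) were higher and 100 (16.7%) lower by edgeR's quasi-likelihood test with Benjamini-Hochberg adjustment. With library size alone they were 167 and 52. The names below give the chromosome and number of the tRNA gene as the table has them. Gene copies of an isoacceptor can be nearly identical, and 67 rows shared all 6 counts with another row of their kind, so values of single copies are uncertain where reads could be shared.

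All 4 LeuCAA genes rose in tRF3a, by 1.31 to 1.43, and in tRF3b. For chr13.tRNA65-LeuCAA tRF3a the counts were 193, 259 and 244 in WT and 916, 711 and 598 in KO. All 10 tested LeuCAG copies rose in both 3′ kinds, and chr8.tRNA1013-LeuCAG tRF3a went from 174, 267 and 225 counts in WT to 970, 742 and 585 counts in KO, a rise of 1.42 (edgeR adjusted p = 0.00382). All 6 ArgACG copies rose in tRF3b, by 0.69 to 0.88, and the 7 tested of 9 SerAGA copies rose in tRF3a. Over all tested rows, 45.1% of tRF3a and 22.3% of tRF3b were called higher, and copies that share reads are not independent. In ArgACG tRF3a, by contrast, 1 of 6 copies rose (chr3.tRNA1040-ArgACG, by 1.16), and the other 5 had negative estimates that were not called.

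HisGTG has 10 gene copies, of which 8 were tested in tRF3a. Most held few counts in KO and passed the filter through WT, so their calls are not counted here. The most counted, chr3.tRNA749-HisGTG, had 67, 129 and 119 counts in WT and 21, 10 and 10 in KO, a fall of 3.30 (SE 0.311, edgeR adjusted p = 0.00146). This copy, too, would not have passed the filter on KO counts alone, so the size of its fall is uncertain. In tRF5 the same gene had 371, 337 and 268 counts in WT and 199, 183 and 169 in KO and fell by 1.18 (edgeR adjusted p = 0.00407). Of 11 LysTTT genes 6 were tested in tRF3a, and each fell, by 1.63 to 2.23, where 8.7% of all tested tRF3a rows were called lower. These copies can share reads, and their sum, low in WT replicate 1, was not called with all libraries (edgeR adjusted p = 0.0505). One further row, chr13.tRNA1003-LeuTAA tRF5, had 15, 11 and 13 counts in WT and 0, 1 and 2 in KO.

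WT replicate 1 was high in some copies of an isoacceptor and not in others. The GlyGCC tRF5 copies were split, after their values were seen and with no test, at a WT replicate 1 count of 2 times the mean of the other WT libraries. Above the limit were 11 copies, with ratios of 3.96 to 7.6, which together made up 15.5% of counts in WT replicate 1, 5.75% and 5.38% in WT replicates 2 and 3, and 4.05%, 3.07% and 4.11% in KO. One of them, chr4.tRNA1308-GlyGCC, had few reads (57, 9 and 6 counts in WT and 57, 44 and 18 in KO) and overlapped between groups. The other 10 were called lower, where 34.8% of all tested tRF5 rows were. Below it were 3 copies, chr1.tRNA702, chr1.tRNA704 and chr1.tRNA706, with 505 to 530 counts in WT replicate 1, 450 to 489 and 395 to 440 in the other WT libraries and 250 to 316 in KO. With TMM scaling these 3 fell by 1.03 to 1.07, close to 2-fold, with no excess in WT replicate 1. As a share of counts the difference was smaller. Together they made up 0.933%, 1.25% and 1.19% in WT and 0.678%, 0.698% and 0.88% in KO.

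HisGTG tRF5 split likewise. Its 8 copies above the limit had ratios of 3.39 to 3.78 and made up 6.21% of counts in WT replicate 1, 2.64% and 2.59% in the other WT libraries and 1.83%, 2.18% and 2.15% in KO, and 2 of the 8 were called lower. Below it were 2 copies: chr3.tRNA749-HisGTG, given above, and the scarce chr3.tRNA293-HisGTG, with 20, 19 and 10 counts in WT and 39, 40 and 25 in KO, whose estimate of 0.70 was not called (edgeR adjusted p = 0.0858). In GluCTC tRF5 no copy was above the limit (ratios of 1.51 to 1.98), and all 10 tested copies fell, by 1.69 to 1.97, beside the same 34.8%.

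**Figure D4:**
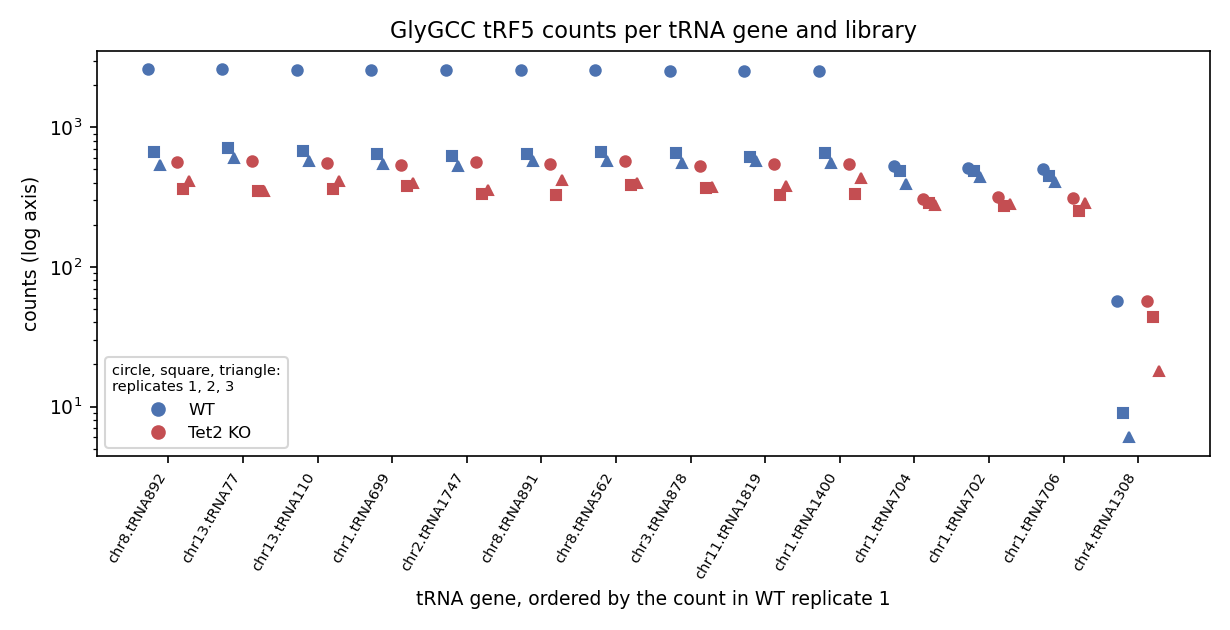
Counts of GlyGCC tRF5 fragments by tRNA gene (x axis, names as in the table, ordered by WT replicate 1) in each library (y axis, counts, log axis), blue for WT and red for Tet2 KO, with replicates 1 to 3 as circle, square and triangle. In 10 genes WT replicate 1 lies far above all other libraries, in chr4.tRNA1308 it lies level with KO replicate 1 at 57 counts, and in chr1.tRNA702, chr1.tRNA704 and chr1.tRNA706 it lies at 505 to 530 counts beside the other WT libraries, above the KO libraries at 250 to 316.

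Fitting each kind on its own sets aside the shift between kinds and asks which isoacceptors moved against the rest of their kind. This fit was added after the data were seen. It called 48 of 136 sums (35.3%): 4 higher and 1 lower of 46 in tRF5, 17 higher and 16 lower of 45 in tRF3a, and 3 higher and 7 lower of 45 in tRF3b. The tRF5 sum that fell against its kind was GluCTC, by 1.04 (SE 0.219, edgeR adjusted p = 9.75e-05). ProCGG tRF5 rose by 1.22 and ProTGG tRF5 by 0.84. In tRF3a HisGTG fell by 3.25, LysCTT by 3.23 and AsnGTT by 4.16, while LeuCAA rose by 0.98 and LeuCAG by 0.82. In tRF3b the higher sums were LeuCAA (0.46), LeuCAG (0.41) and ArgACG (0.36).

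In the second experiment the shift between kinds was smaller. tRF5 made up 84.2% ± 2.44 (SD, n = 3) of counts in E14 and 78.6% ± 2.93 (SD, n = 3) in KO, a difference of -5.54 points with overlapping groups (exact permutation p = 0.2, adjusted p = 0.3). For tRF3a the difference was 5.22 points (exact permutation p = 0.1, adjusted p = 0.3), with no overlap, and for tRF3b 0.32 points (exact permutation p = 0.5). edgeR called 8 (6.5%) sums higher and 6 (4.88%) lower of 123 there. Of the 121 sums tested in both experiments, 3 were higher in both, which is 3 of 32 in the first and 3 of 8 in the second: LeuCAA, ProAGG and ProTGG, all tRF3a. A further 3 were lower in both (3 of 27 and 3 of 6): AlaCGC, ArgTCT and ValCAC, all tRF5. Of these, ValCAC was also called in the first experiment at library size alone, where AlaCGC and ArgTCT each had a log2 change of -0.04 (edgeR adjusted p of 0.95 and 0.952). The AlaCGC call (edgeR adjusted p = 0.0495) was lost without WT replicate 1 (edgeR adjusted p = 0.0938).

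The change itself differed between the experiments in 32 of 137 sums (23.4%) by the interaction term in edgeR over 12 libraries. LysCTT tRF3a, which fell in the first experiment, had a log2 change of 0.12 in the second (edgeR adjusted p = 0.818), a difference of -3.03 (edgeR adjusted p = 4.14e-05). GluCTC tRF3a fell in the first and rose by 0.95 in the second (edgeR adjusted p = 0.0494), and was the 1 sum called in opposite directions. AsnGTT tRF3a had a change of -0.05 in the second experiment, a difference of -3.82 (edgeR adjusted p = 0.000192). LeuCAA tRF3a rose by 0.72 in the second experiment (edgeR adjusted p = 0.0321), beside 1.32 in the first. The kit, the control line and the set of KO cultures differ together between the experiments and cannot be told apart.

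**Figure D5:**
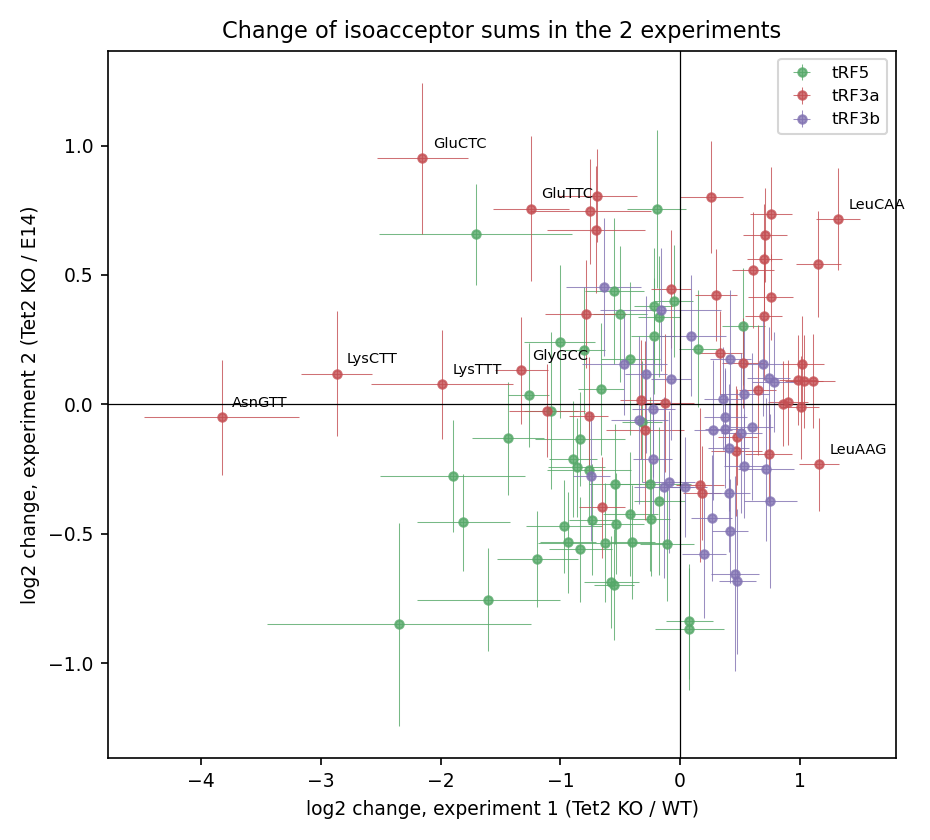
Log2 change of isoacceptor sums in Tet2 KO in experiment 1 (x axis, against WT) and experiment 2 (y axis, against E14), with SE as bars and colours for the fragment kinds; labelled points are tRF3a sums. LeuCAA tRF3a is above 0 on both axes at 1.32 and 0.72, whereas LysCTT and AsnGTT lie near 0 in experiment 2 and GluCTC lies at -2.15 and 0.95.

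The series also holds immunoprecipitations that cover the same tRNA genes, given here as a description with no test. In hm5C RIP, which pulls down RNA bearing hm5C, LeuCAA stood at 57.5 and 73.3 CPM (by library total) in the 2 hm5C libraries and at 8.62 and 6.34 CPM in the 2 input libraries. Its log2 ratio of means, 3.13, ranked 1 of 38 isoacceptors with at least 100 counts, whose median was -0.075. LysTTT ranked 2, at 237 and 169 CPM against 42.2 and 41.7 CPM (log2 ratio 2.27), and HisGTG ranked 25, at 560 and 570 CPM against 590 and 692 CPM (log2 ratio -0.18). Of the 2 isoacceptors with the highest hm5C ratios, LeuCAA rose in tRF3a, and LysTTT tRF3a had a negative estimate. The latter was not called with all libraries and TMM scaling (edgeR adjusted p = 0.0505), and its groups overlapped as a share of the library. Library totals in the immunoprecipitations can be set by a few abundant RNAs, so ranks among isoacceptors are given beside the ratios. In TET2 CLIP, which maps RNA crosslinked to TET2, LeuCAA ranked 13 and 22 of 31 isoacceptors in clones 65 and 75, LysTTT 2 and 5, and HisGTG 11 and 12. The limit was again 100 counts, over all CLIP and input libraries, and LysTTT had 101 and HisGTG 116. LysTTT input had means of 2.53 and 2.3 CPM in clones 65 and 75, so its ranks are uncertain. Across 28 to 38 isoacceptors, the correlation of these ratios with the log2 change of a fragment kind lay between -0.29 and 0.15 (Pearson's r), which is weak for sums of unequal depth.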

How the data were processed

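Raw read counts of tRNA fragments per tRNA gene and fragment kind were used as deposited by the authors. The submitters' processing notes name Bowtie2 2.2.6, STAR 2.5.3a, UMI-tools and cutadapt and the build mm10. What each tool did, how reads that match several gene copies were counted and how the kinds were defined are not given in the sources used here, and the authors' names of tRNA genes were kept. Coordinates and sequences of tRNAs were not used here.

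Counts, and their sums by anticodon and kind, were tested by the robust quasi-likelihood F-test of edgeR 4.0.16 (R 4.3.3) after filterByExpr and TMM scaling, with Benjamini-Hochberg adjusted p-values under 0.05 called. That filter asks for sufficient counts in 3 of the 6 libraries, so a feature scarce in 1 group could enter through the other. CPM were computed with TMM-scaled library sizes, and the model gave log2 changes with their SE. Log2 ratios of 2 kinds (pseudocount 0.5, mean count of at least 20) were tested with limma 3.58.1, and shares of kinds by exact permutation. The experiments were compared by an interaction term over 12 libraries. TET2 CLIP and hm5C RIP counts of tRNA genes were divided by the library total and averaged.

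Sums named in the text were, by rule, up to 10 higher and 10 lower calls with no overlap and the smallest p, the 8 most counted, all of the TRDMT1, LeuCAA and retroviral primer lists, up to 4 of each other list, up to 10 higher and 10 lower single genes, 6 ratios and 6 differences between experiments. Other values were chosen after they were seen. The members and the lists were chosen with earlier results of these data known. Alternatives were library size alone, size factors or the Wald test of DESeq2 1.42.0, all features kept, a replicate block, the most counted sum left out, identical rows collapsed, other limits for the ratios, and each library left out. Fits within a kind were added after the data were seen. The tests were checked on simulated counts. Depths of 96070 to 165669 fragment counts limit the precision of sums with few counts, and replicates differed by more than counting error.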

Additional observations from a re-analysis of the deposited data

Results flagged for a closer look

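In 22 named sums the change in Tet2 KO differed between the first and the second experiment by the interaction term in edgeR (adjusted p under 0.05, with 3 libraries a group). The values are the log2 change in the first experiment minus that in the second. Among tRF3a sums with a more negative change in the first, the differences were -3.819 for AsnGTT, -3.157 for GluCTC, -3.031 for LysCTT, -2.115 for HisGTG, -2.086 for LysTTT, -2.049 for GluTTC, -1.521 for GlyGCC, -1.176 for PheGAA and -0.7702 for GlyTCC. HisGTG tRF3a did not pass the count filter in the second experiment alone. Among tRF3a sums with a more positive change in the first, they were 1.332 for LeuAAG, 0.9638 for LeuTAG, 0.95 for SerTGA, 0.8897 for SerCGA, 0.8331 for ValAAC, 0.8241 for GlyACC, 0.7974 for SerAGA and 0.7948 for ValCAC. In tRF5 they were -1.432 for GluCTC, -1.359 for AsnGTT, -1.117 for IleTAT and -1.074 for ThrAGT, and in tRF3b -1.146 for PheGAA. Kit, control line and knockout set differ together between the experiments and cannot be told apart.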

How the results depend on the processing

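The shares of the 3 kinds kept their direction in every setting run. Scaling and single libraries moved the counts of calls, and the cause was not tested. Fragments called lower numbered 52 at library size alone and 30 to 166 with 1 library left out (166 without WT replicate 1, and 40, 30 and 45 without KO replicates 1, 2 and 3). Sums called higher numbered 22 to 35 with 1 library left out (22 without KO replicate 3). Sums called lower numbered 13 at library size alone and 15 to 35 with 1 left out (15 and 18 without KO replicates 2 and 3). Changed ratios numbered 16 with a mean count of at least 100, where fewer ratios are tested, and 20 to 41 with 1 left out (23 without WT replicate 3, and 26, 20 and 22 without KO replicates 1, 2 and 3). Differences between experiments numbered 14 at library size alone and 20 to 48 with 1 left out (20 without the second experiment's KO replicate 3, 48 without WT replicate 2).

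Within a kind, tRF5 higher ranged from 2 to 6 and tRF5 lower from 1 to 3 (3 with DESeq2 size factors), tRF3a higher from 11 to 17 (10 with the total of the kind alone), tRF3b higher from 3 to 5 and tRF3b lower from 3 to 8 with 1 library left out. Signs turned for uncalled sums at library size alone: AspGTC tRF3b 0.19, GlyGCC tRF3b 0.29, LeuCAA tRF5 0.36, ThrTGT tRF5 0.085, PheGAA tRF5 0.13 and MetCAT tRF5 0.068, and for MetCAT tRF5 without WT replicate 1 (-0.94 to 0.15 with 1 library left out).

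The main fits did not pair replicates. Same-numbered WT and KO libraries deviated from their group means with correlations of -0.35, 0.12 and -0.47 in the sums, and not every library correlated best with its own number. Deviations within a group of 3 libraries offset one another, so these correlations cannot tell whether replicates were made in pairs. With the replicate block, fragments were 88 higher and 62 lower, sums 29 higher and 26 lower, changed ratios 19, differences between experiments 13 and tRF5 sums lower within their kind 2.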
